A study of Mus musculus with 6 samples.

Results

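The genes described here encode the contractile lattice of heart muscle and the structures that anchor it. They were the 35 genes Mybpc3, Myl2, Myl3, Unc45b, Tnnt2, Tnni3, Tnnc1, Tnnt1, Tnni1, Tpm1, Tpm2, Tmod1, Capzb, Actn2, Ldb3, Myoz1, Myoz2, Myot, Csrp3, Nebl, Nexn, Pdlim3, Pdlim5, Flnc, Des, Cryab, Smpx, Ttn, Tcap, Myom1, Myom2, Fhl2, Trim54, Trim55 and Trim63. Every probe that the array files name for one of these genes was taken, which gave 73 of the 41174 probes other than controls and 35 of the 27745 gene names in the files. RNA was measured in whole hearts of male mice aged 12 weeks on the C57BL6/J background, 3 of them WT and 3 TG-PKR1, with 1 array per heart. TG-PKR1 mice overexpress the prokineticin receptor PKR1 in cardiomyocytes from the αMHC promoter, which is active in cardiac muscle cells, and the WT hearts carry no transgene. The hearts of each group were numbered in the order of the labels, and the numbers pair nothing.

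In striated muscle, myosin of the thick filament pulls on actin of the thin filament, and troponin and tropomyosin let calcium switch that contact on and off. Thin filaments are cross-linked at the Z-disc, the giant protein titin spans from there to the M-band in the middle of the sarcomere, and both ends carry adaptor proteins that sense load. Muscle ring-finger proteins bind the sarcomere and attach ubiquitin to proteins that are to be removed.

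Promoters are shown first, for 5 of the members whose hearts are given one by one below: both lead probes without overlap (Smpx and Tmod1), the largest differences of the Z-disc and ring-finger groups (Des and Trim63), and the smallest of the thick filament (Myl3). These 5 were picked after their values were seen. RefSeq start sites on GRCm38.p6 were found for 28 of the 35 genes, with 39 windows of 250 bases upstream of a start, since 9 genes have more than 1 start. Myoz1, Myot, Nexn, Cryab, Tcap, Myom2 and Trim55 had no entry in the set of start sites used here. Capitals mark letters that matched a motif on either strand. One of the motifs was the E-box, CANNTG, which binds the factors that specify muscle. The M-CAT element of cardiac promoters was searched as CATTCC and the TATA box, where transcription is positioned, as TATAAA. The CArG box, bound by serum response factor, and the MEF2 site were searched by their usual consensus. The windows are written 5′ to 3′ on the strand of the gene, and all 5 genes lie on the plus strand.
Smpx, chrX:157698723-157698972: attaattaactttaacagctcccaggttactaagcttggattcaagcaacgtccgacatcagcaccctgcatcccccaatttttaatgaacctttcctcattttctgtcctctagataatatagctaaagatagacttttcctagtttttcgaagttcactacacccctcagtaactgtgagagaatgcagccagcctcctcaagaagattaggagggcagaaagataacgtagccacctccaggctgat
Tmod1, chr4:46038972-46039221: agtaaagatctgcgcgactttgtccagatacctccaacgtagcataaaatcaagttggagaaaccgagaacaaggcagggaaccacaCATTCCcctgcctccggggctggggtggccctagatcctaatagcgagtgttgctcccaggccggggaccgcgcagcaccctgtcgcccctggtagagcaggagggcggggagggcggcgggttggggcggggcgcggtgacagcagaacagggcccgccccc
Des, chr1:75360042-75360291: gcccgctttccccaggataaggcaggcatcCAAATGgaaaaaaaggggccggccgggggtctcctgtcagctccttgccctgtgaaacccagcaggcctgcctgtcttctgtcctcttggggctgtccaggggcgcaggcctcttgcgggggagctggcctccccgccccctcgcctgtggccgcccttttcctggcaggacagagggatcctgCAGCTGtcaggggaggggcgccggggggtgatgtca
Trim63, chr4:134314870-134315119: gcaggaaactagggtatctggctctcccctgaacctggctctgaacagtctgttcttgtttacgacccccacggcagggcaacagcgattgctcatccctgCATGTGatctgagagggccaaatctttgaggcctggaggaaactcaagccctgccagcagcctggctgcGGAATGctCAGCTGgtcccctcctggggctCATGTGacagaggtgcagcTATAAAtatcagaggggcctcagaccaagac
Myl3, chr9:110763428-110763677: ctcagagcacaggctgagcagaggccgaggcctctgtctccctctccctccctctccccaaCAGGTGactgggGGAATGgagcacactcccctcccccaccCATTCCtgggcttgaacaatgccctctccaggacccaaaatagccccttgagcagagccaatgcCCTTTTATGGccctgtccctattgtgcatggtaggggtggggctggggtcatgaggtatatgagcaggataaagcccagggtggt
The Smpx window held none of these letters. Trim63 held a TATA box starting 31 bases before its start site, 3 E-boxes and 1 M-CAT element. Myl3 held an E-box starting 189 bases before its start, M-CAT elements at 177 and 149 bases, and a CArG box at 85 bases. Des had E-boxes starting 220 and 36 bases before the start, and Tmod1 had a single M-CAT element starting 163 bases before it.

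Over the 39 windows of members, 17.9% held a CArG box, against 1.47% of all 32851 RefSeq windows of this length, and these were windows of Fhl2, Ldb3, Myl3, Myom1 and Nebl. A MEF2 site stood in 10.3% of the windows, against 2.92% of all, namely in those of Fhl2, Mybpc3, Myoz2 and Ttn. M-CAT elements were in 25.6% against 12.6%, E-boxes in 76.9% against 66.2%, and TATA boxes in 12.8% against 12.4%. Windows of 1 gene can overlap, and these shares describe letters only, with no measurement of a factor on them. Motifs were counted apart from each other, also where they share bases.

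Signals were compared as log2 median spot brightness after normalization, so 1 unit is a doubling, and brightness is compared between hearts for the same probe and never between probes. Of the 73 probes, 64 were well above background on all 6 arrays by the scanner software's own test and 4 on none, namely 1 probe of Capzb, 1 of Flnc and 2 of Fhl2. For each gene the lead probe was the one above background on most arrays, with the fewest saturated spots and then the highest mean. The lead probe was well above background on all 6 arrays for 34 of the 35 genes and on 5 arrays for Tnni1, which encodes the slow skeletal troponin I. Saturation touched only the Mybpc3 probe among the members, on the arrays of WT 3 and TG-PKR1 3, so its values there are lower bounds. Prokr1, the gene of PKR1, had 1 probe, at chr6:87544742-87544801 of mm8, and it was well above background on 0 of 6 arrays, so that the genotypes in the labels could not be checked on it. The arrays of WT 1, TG-PKR1 2 and TG-PKR1 3 were scanned with an extended range, and their upper quartile signal was 11.4 to 14.1 times the local background, against 2.08 to 3.97 times on the 3 arrays scanned once.

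No gene of the contractile apparatus was called different between TG-PKR1 and WT hearts. The difference of TG-PKR1 minus WT ranged from -0.13 for the lead probe of Myom2 to 0.50 for that of Des, with a median of 0.10 over the 35 lead probes and 0.13 over all 73 probes, where the median of the 20000 probes tested was 0.03. With arrays scaled by their 75th percentile and not by loess, the medians were 0.26 over the 73 and -0.02 over the probes tested. By limma with Benjamini-Hochberg adjustment over the 20000 probes, 0 of the 64 member probes tested passed the threshold of 0.05 in either direction. The adjusted p was 0.9999 for each of the 64, and it is not repeated beside the differences below. Among all probes tested, 0% were called higher and 0.095% lower. That background of 19 probes was itself unstable, with 0 probes called when arrays were scaled by their 75th percentile, with scan as a block, and without any one heart other than WT 2, where 29 were called. Significance analysis of microarrays (SAM), run in place of limma, called 0 member probes too, of 54 called lower in all. At an unadjusted p under 0.05 there was 1 member probe, the second probe of Nebl, higher in TG-PKR1 hearts, and 0 lower, where 0.715% of all probes were higher and 1.66% lower at that level (2.38% in either direction). With scan as a block, and with the authors' log2 values, no member probe was under 0.05 unadjusted. In such bulk hearts, fewer cells of a type and less RNA per cell cannot be told apart.

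**Figure D1:**
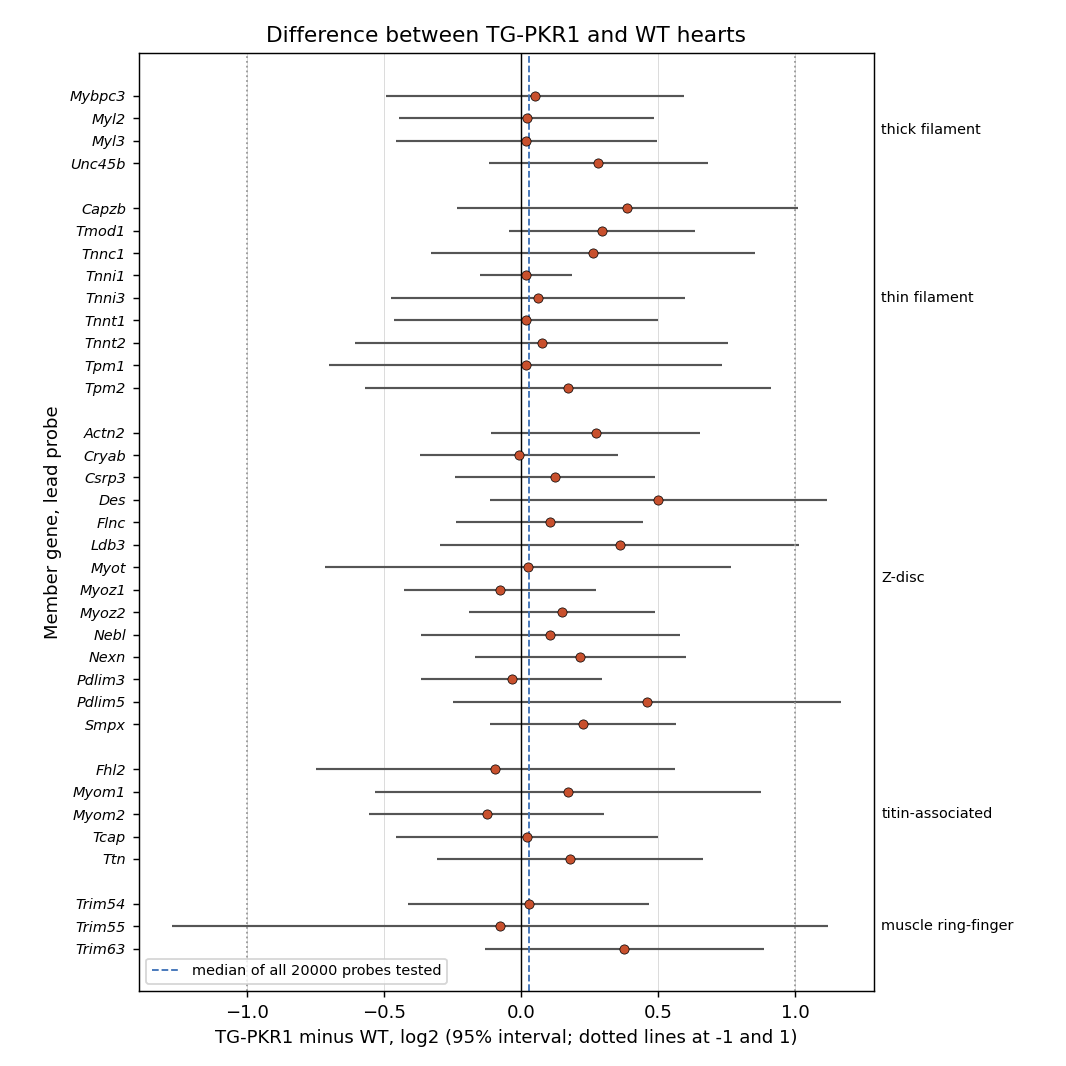
Difference of TG-PKR1 minus WT hearts in log2 units (x axis) for the lead probe of each of the 35 genes (rows, by group), as the limma estimate with its 95% interval from 3 hearts per group. Each interval spans 0, and 30 of the 35 lie between the dotted lines at -1 and 1.

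The intervals give the sizes of change that these hearts still allow. For 30 of the 35 lead probes, the 95% interval of the difference lay within 1 log2 unit of 0, where 94.3% of all probes tested did. The 5 others were Capzb, Des, Ldb3, Pdlim5 and Trim55. Within 0.5 log2 units lay 12 of the 35, against 39.7% of all probes tested. The lead probes varied more between hearts of a group than most probes did, with a median pooled SD of 0.29 against 0.22 over all probes and 0.25 over the 1996 brightest. Spread between hearts was largest for Trim55, Myot, Tpm2 and Tpm1, with pooled SDs of 0.90, 0.53, 0.53 and 0.51.

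The means of the members leaned to the TG-PKR1 side. Of the 35 lead probes, 29 (82.9%) had the higher mean in TG-PKR1 hearts, where 58.2% of all probes tested did. The members share hearts and arrays and are not independent of each other, so no p is given for this count. In 12 of the 35 the mean was higher by more than its SE, and in 0 it was lower by more than its SE, where 15.1% and 8.27% of all probes tested were. Hearts of the groups did not overlap for 2 lead probes, Tmod1 and Smpx, both higher in TG-PKR1, and for 0 in the other direction, where 2.68% of all probes tested lay wholly higher and 2.73% wholly lower. Over all 73 probes, 6 lay wholly higher, and 3 of these are dim probes outside the 20000 tested.

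One TG-PKR1 heart was high for many members. TG-PKR1 1 was the highest of the 6 hearts for 16 of the 35 lead probes and the lowest for 0, counting Mybpc3 with its 2 lower bounds, while it was the highest for 10.2% of all probes. WT 2 was the lowest for 12 and WT 3 for 11 of them, where they were the lowest for 21.2% and 21.5% of all probes. Per heart, the median of the 35 lead probes relative to the WT mean of each probe was 0.12, 0.02 and -0.13 in WT 1, WT 2 and WT 3, and 0.28, -0.02 and 0.09 in TG-PKR1 1, TG-PKR1 2 and TG-PKR1 3. The groups overlap on this measure, with TG-PKR1 2 between WT 2 and WT 3. High values in TG-PKR1 1 were not particular to the members. For lists described below, the same median in that heart was 0.24 (other sarcomere genes), 0.21 (other cardiomyocyte genes) and 0.26 (atrial genes). It was 0.05 for skeletal muscle genes, -0.01 for ventricular genes and -0.02 over all 20000 probes tested. Without TG-PKR1 1, 21 of the 35 lead probes had the higher mean in TG-PKR1 hearts, and the median over the 73 probes was 0.13. Without WT 3, 21 did as well, with a median of 0.09.

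**Figure D2:**
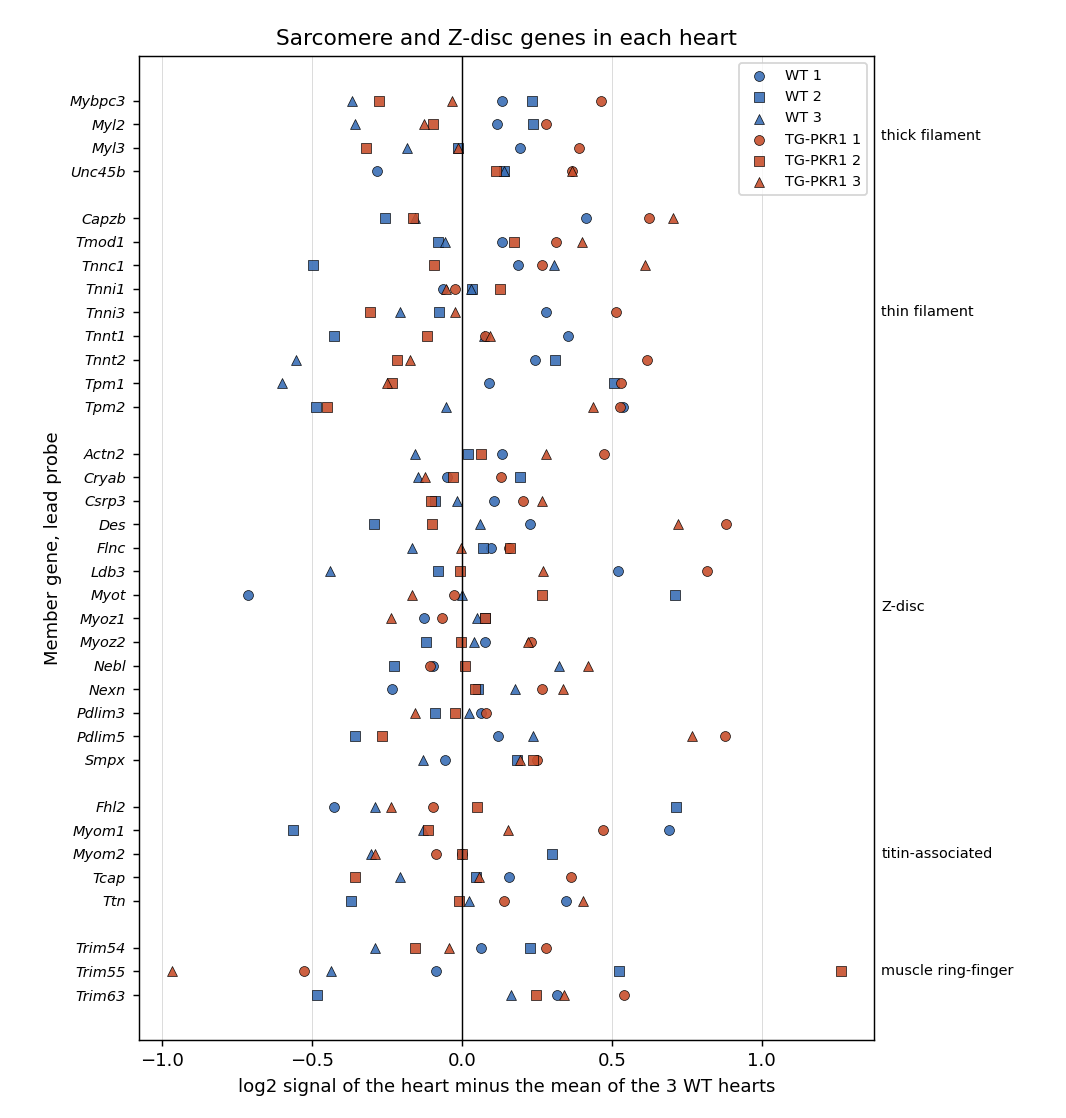
Normalized log2 signal of each heart minus the mean of the 3 WT hearts (x axis) for the lead probe of each of the 35 genes (rows), with WT hearts in blue and TG-PKR1 hearts in red. TG-PKR1 1 (red circles) is the farthest right of the 6 hearts in 16 rows, and the 2 groups are wholly apart only for Tmod1 and Smpx.

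The lead probes of the 4 thick filament genes had differences of 0.02 to 0.28. Myl3, which encodes the essential light chain of ventricular myosin, read 17.34, 17.13 and 16.96 in WT hearts and 17.54, 16.82 and 17.13 in TG-PKR1 hearts. Its TG-PKR1 values lay on both sides of the WT values, with a difference of 0.02 (SE 0.21). Unc45b, a chaperone that folds myosin, gave 13.65, 14.07 and 14.07 in WT and 14.30, 14.05 and 14.30 in TG-PKR1. WT 1 was the low heart there and TG-PKR1 2 sat among the WT hearts, so that the mean difference of 0.28 (SE 0.17) came with overlap, and it was 0.12 without WT 1. For Mybpc3, the cardiac myosin-binding protein C, and Myl2, the regulatory light chain of the ventricle, the differences were 0.05 and 0.02. The Mybpc3 value rests on the saturated spots of WT 3 and TG-PKR1 3, and it was -0.09 with saturated spots left out. The lead probes of both light chains were highest in TG-PKR1 1.

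The lead probes of thin filament genes gave 9 differences that were all positive and between 0.02 and 0.39. The signs of Tnni1, Tnnt1 and Tpm1 turned under at least 1 other normalization, with Tnni1 at -0.40 when arrays were scaled by their 75th percentile. Tmod1, the tropomodulin that caps the pointed end of actin, is read by a probe at chr4:46135612-46135669 of mm8. Its values were 11.66, 11.45 and 11.47 in WT hearts and 11.84, 11.70 and 11.93 in TG-PKR1 hearts. Each TG-PKR1 heart was above each WT heart, by only 0.04 between TG-PKR1 2 and WT 1. The difference was 0.30 (SE 0.15), and the two-sided exact permutation test gave p = 0.1, the smallest that 3 against 3 hearts allow. The other Tmod1 probe, which overlaps the first in position, lacked a value in WT 1, where its spot was marked as an outlier, and gave 0.17 (SE 0.21).

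Capzb, the beta subunit of the protein that caps the barbed end of actin at the Z-disc, had the largest difference of the thin filament lead probes. Its hearts read 13.01, 12.34 and 12.44 in WT and 13.22, 12.43 and 13.30 in TG-PKR1, at chr4:138563177-138563236. TG-PKR1 1 and TG-PKR1 3 were the highest, TG-PKR1 2 was among the WT hearts, and the difference was 0.39 (SE 0.27). It was 0.67 without TG-PKR1 2, with an adjusted p of 0.725 by limma, and 0.22 without TG-PKR1 3. Tpm1, the main tropomyosin of heart, gave 17.37, 17.78 and 16.68 in WT and 17.81, 17.04 and 17.03 in TG-PKR1, a difference of 0.02 (SE 0.31). The WT hearts alone spanned the values of all but 1 TG-PKR1 heart. The second bright Tpm1 probe gave 0.10 and the third gave 0.21, while the 2 probes of Tpm2, the beta tropomyosin, gave 0.17 and -0.08.

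Genes of the troponin complex had differences of 0.08 for Tnnt2, the cardiac troponin T, 0.06 for Tnni3, the cardiac troponin I, and 0.26 for Tnnc1, the troponin C of heart and slow muscle. Their SEs were 0.30, 0.23 and 0.26. WT 2 was the lowest heart for Tnnc1. The Tnnc1 difference was 0.07 among the extended range arrays, which do not include WT 2, and 0.36 among those scanned once. The second Tnnt2 probe, 12.3 kb from the lead probe, gave 0.39 (SE 0.23). Without TG-PKR1 1 it gave 0.63, with an unadjusted p of 0.0202 and an adjusted p of 0.9999 by limma. It gave 0.57 among the extended range arrays and -0.06 among those scanned once. The slow skeletal isoforms Tnnt1 and Tnni1, of which Tnni1 serves the fetal heart, differed by 0.02 each. Tnni1 had the smallest spread of all lead probes, with a pooled SD of 0.08, on a dim probe.

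The 2 largest differences of all lead probes were in Z-disc genes, and both came with wide spread between hearts. Des, the intermediate filament desmin that ties neighboring Z-discs together, is read at chr1:75249977-75250202. Its hearts were 13.04, 12.52 and 12.88 in WT and 13.70, 12.72 and 13.54 in TG-PKR1. TG-PKR1 1 and TG-PKR1 3 were above all WT hearts and TG-PKR1 2 was below 2 of them, and the difference of 0.50 (SE 0.27, 95% interval -0.11 to 1.12) did not pass the test. Without TG-PKR1 2 it was 0.80, with an unadjusted p of 0.00341 and an adjusted p of 0.523 by limma, the smallest adjusted p of any member in any setting tried. The Des difference was 0.34 without TG-PKR1 1, and 0.37 without either TG-PKR1 3 or WT 2.

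The same 2 TG-PKR1 hearts were high for Pdlim5, an adaptor of the enigma family at the Z-disc, which is named here after its values were seen. Its lead probe read 12.12, 11.64 and 12.24 in WT and 12.88, 11.73 and 12.77 in TG-PKR1, a difference of 0.46 (SE 0.31). It was 0.82 without TG-PKR1 2, with an adjusted p of 0.574 by limma, and 0.28 without TG-PKR1 1. A second Pdlim5 probe, 1.06 kb away, gave 0.49 (SE 0.28), while 2 probes about 58.4 kb away gave 0.03 and 0.01. Ldb3, another adaptor of that family, had 0.36 (SE 0.29) on its lead probe and 0.42 (SE 0.21) on a neighboring one. Without WT 1 these were 0.61 and 0.57, with an adjusted p of 0.790 by limma for both. A further Ldb3 probe, 32.0 kb away, gave 0.16. The lead probe of Ldb3 gave -0.39 among the extended range arrays and 1.08 among those scanned once. Flnc, the muscle filamin that cross-links actin, had 0.10 on its lead probe and 0.49 (SE 0.34) on a probe 0.524 kb upstream of it. That upstream probe gave 0.80 without WT 1 and 0.79 without TG-PKR1 2, with adjusted p of 0.790 and 0.793 by limma. It gave -0.40 among the extended range arrays and 1.29 among those scanned once.

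Smpx, a small protein of muscle that responds to stretch, had the tightest TG-PKR1 group of the lead probes. WT hearts gave 14.57, 14.81 and 14.50, and TG-PKR1 hearts 14.88, 14.87 and 14.82. The groups did not overlap, though WT 2 and TG-PKR1 3 differed by only 0.0072 on this scale. The difference was 0.23 (SE 0.15), and the exact two-sided permutation p was 0.1. The lowest difference of the Z-disc lead probes was that of Myoz1, the calsarcin of fast skeletal muscle, a dim probe in heart. It read 6.32, 6.52 and 6.50 in WT and 6.38, 6.53 and 6.21 in TG-PKR1, a difference of -0.07 (SE 0.15).

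Of the remaining Z-disc genes, Actn2, the alpha-actinin that cross-links actin filaments, differed by 0.27 (SE 0.17), Nexn, an actin-binding protein of the Z-disc, by 0.22 (SE 0.17), and Myoz2, the cardiac calsarcin, by 0.15 (SE 0.15). Csrp3, the muscle LIM protein, differed by 0.12, Myot, the titin-like myotilin, by 0.02, Cryab, a chaperone of desmin, by -0.01, and Pdlim3 by -0.03, with -0.09 on its other probe. Under the 75th percentile scaling Csrp3 gave 0.34, Cryab 0.20 and Pdlim3 0.08, and Myot gave -0.04 when that scaling was applied to the processed signal. Csrp3 gave 0.23 without TG-PKR1 2 and 0.04 without TG-PKR1 3. Myot gave 0.76 among the extended range arrays and -0.38 among those scanned once. Nebl encodes nebulette, the short cardiac relative of nebulin, and its lead probe gave 0.11 (SE 0.21). Its second probe, at chr2:17265097-17265156, was the 1 of the 64 tested with an unadjusted p under 0.05. It read 7.86, 7.82 and 7.72 in WT and 7.95, 8.54 and 8.26 in TG-PKR1, with no overlap and a difference of 0.45 (SE 0.18), and this probe was picked after its values were seen.

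Titin and the proteins bound to it had lead probe differences of -0.13 to 0.18. The lead probe of Ttn, at chr2:76505330-76505389 near the 3′ end of the gene, read 14.11, 13.39 and 13.79 in WT and 13.90, 13.75 and 14.17 in TG-PKR1, a difference of 0.18 (SE 0.21). Myom2, a cross-linker of the M-band, was the lead probe with the lowest difference of all, -0.13 (SE 0.19), though it was 0.13 when arrays were scaled by their 75th percentile and not by loess. Its hearts were 17.23, 17.53 and 16.92 in WT and 17.14, 17.23 and 16.94 in TG-PKR1, all TG-PKR1 hearts inside the WT range. Myom1, the other M-band gene, differed by 0.17 (SE 0.31), Tcap, which caps 2 titin ends at the Z-disc, by 0.02 (SE 0.21), and Fhl2, a LIM protein that binds titin, by -0.09 (SE 0.29). WT 1 was the highest heart for Myom1. The Myom1 difference was -0.67 among the extended range arrays, which include WT 1, and 0.82 among those scanned once. The sign for Fhl2 turned to 0.16 with the 75th percentile scaling, 0.07 with quantile normalization, 0.06 with normexp and quantile normalization and 0.01 with scan as a block. WT 2 was the high heart for Fhl2, at 17.60 against 16.45 to 16.93 in the other 5, and without it the difference was 0.28.

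Titin was read by 9 probes spread over 261 kb of the gene, all well above background on all 6 arrays, and they differed in which heart was high. Of the differences, 8 lay between 0.13 and 0.32, and the probe nearest the 5′ end gave -0.05 (SE 0.43). At that 5′ probe, hearts read 12.63, 13.04 and 12.42 in WT and 11.88, 13.76 and 12.31 in TG-PKR1. TG-PKR1 2 was the highest there and TG-PKR1 1 the lowest, so the WT hearts lay between hearts of the other group. TG-PKR1 2 was the highest heart on 4 of the 9 probes and WT 1 on 3, while WT 3 was the lowest on 5 and WT 2 on 3. Without WT 1, 4 of the Ttn probes had an unadjusted p under 0.05, all higher in TG-PKR1, with differences of 0.49 to 0.74 and an adjusted p of 0.790 by limma. Without TG-PKR1 2, the 5′ probe was lower in TG-PKR1 by -0.59, with an unadjusted p of 0.0355 and an adjusted p of 0.793 by limma.

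**Figure D3:**
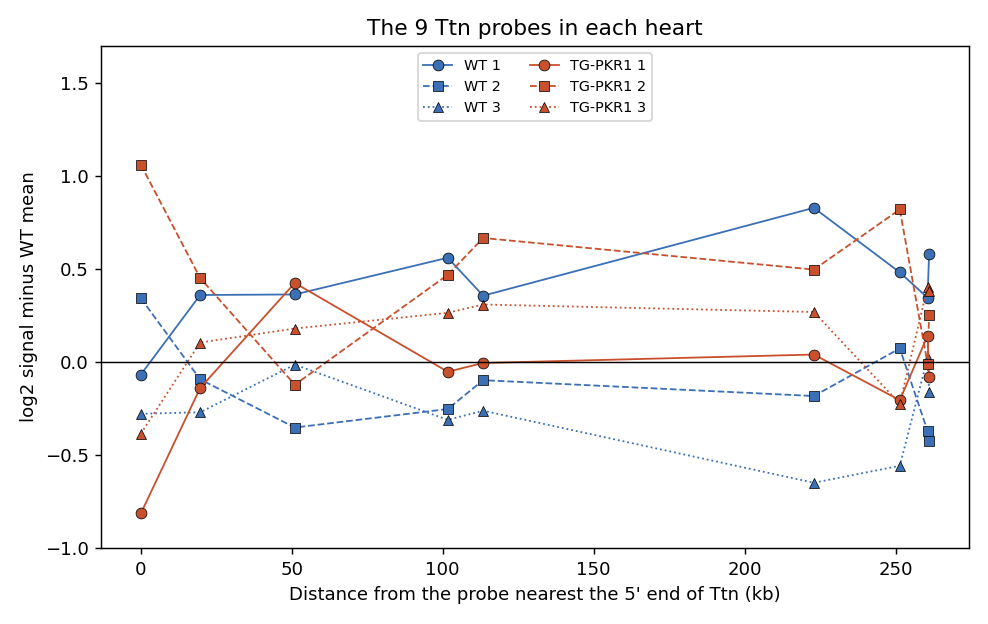
Normalized log2 signal minus the mean of the 3 WT hearts (y axis) for the 9 Ttn probes, against their distance in kb from the probe nearest the 5′ end (x axis). WT hearts are blue and TG-PKR1 hearts red, lines join the probes of a heart, and the lines cross, with TG-PKR1 2 at 1.06 and TG-PKR1 1 at -0.81 on the 5′ probe.

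The muscle ring-finger genes included the most variable member. Trim55 read 9.10, 9.71 and 8.75 in WT and 8.66, 10.45 and 8.22 in TG-PKR1, at chr3:19836634-19836693. TG-PKR1 2 was the highest and TG-PKR1 3 the lowest of the 6 hearts, and the pooled SD of 0.90 was the largest of all lead probes. Its difference was -0.08 (SE 0.52, 95% interval -1.27 to 1.12), and -0.70 without TG-PKR1 2, with an adjusted p of 0.793 by limma. Trim63, the ring-finger ligase best known from muscle atrophy, had 12.86, 12.05 and 12.70 in WT and 13.08, 12.78 and 12.88 in TG-PKR1. WT 2 was the low heart, WT 1 lay above TG-PKR1 2, and the difference was 0.38 (SE 0.22), or 0.15 without WT 2. The other Trim63 probe, 11.8 kb upstream, gave -0.08 (SE 0.27). Trim54, the third gene of this family, differed by 0.03 (SE 0.19).

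Probes of the same gene mostly pointed the same way. Of the 17 genes with more than 1 probe well above background on all 6 arrays, 13 had all their differences on 1 side of 0. Such sharing of sign was likely beforehand, since 84.4% of the 64 member probes tested had the higher mean in TG-PKR1 hearts. All probes also share the same hearts and arrays, so this count is a description only. Cryab, Tpm2, Trim63 and Ttn had differences on both sides, and none of their probes had an unadjusted p under 0.05 with all 6 hearts in the fit.

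The sign of the difference was not the same in both kinds of scan for many members. Among the 3 extended range arrays, the mean of TG-PKR1 2 and TG-PKR1 3 minus WT 1 was positive for 15 of the 35 lead probes, with a median of -0.02. Among the 3 arrays scanned once, TG-PKR1 1 minus the mean of WT 2 and WT 3 was positive for 28, with a median of 0.32. The signs were opposite for 25 of the 35, both positive for 9 and both negative for 1, Myom2. The 9 were Unc45b, Tmod1, Tnnc1, Actn2, Des, Myoz2, Nexn, Pdlim5 and Smpx, and Tmod1 gave 0.15 and 0.38, Smpx 0.27 and 0.22, and Des 0.08 and 0.997 in the extended and single scans. The thin filament lead probes had medians of -0.33 and 0.58, and the thick filament ones -0.26 and 0.41. On the 1 slide that carried arrays of both groups, TG-PKR1 1 minus WT 2 was positive for 28 of the 35, with a median of 0.29. Each kind of scan holds 1 heart of a group alone, so these are values without a test. The shares of all probes with these signs were not counted, so the counts are not read as particular to the members or to scanning. With scan as a block, limma called 0 member probes, 30 of the 35 lead probes had the higher mean in TG-PKR1 hearts, and the median over the 73 probes was 0.10.

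**Figure D4:**
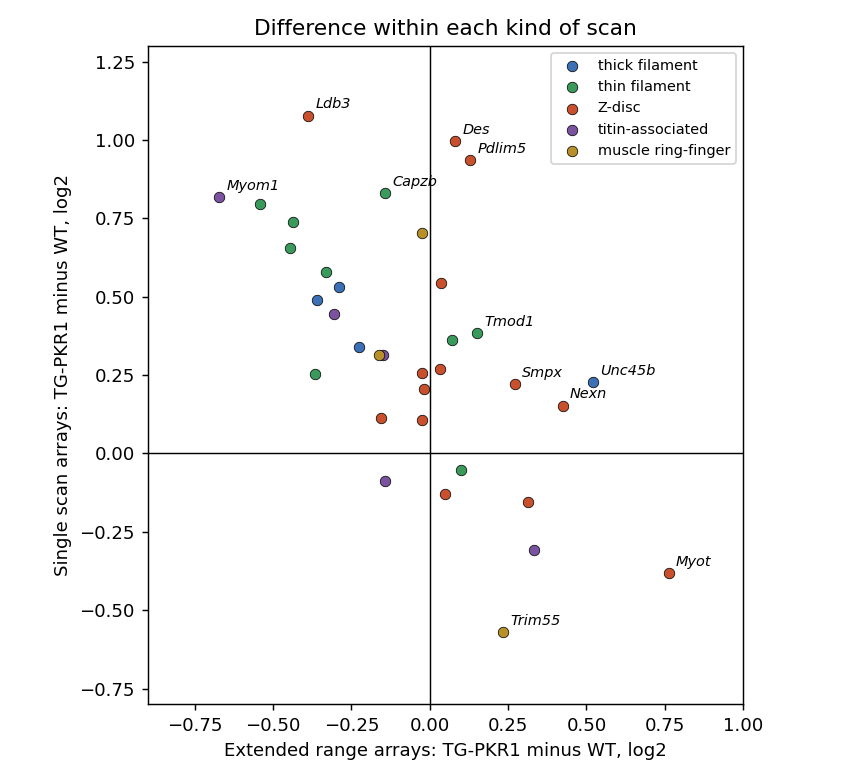
Difference of TG-PKR1 minus WT in log2 units for the 35 lead probes among the extended range arrays (x axis, 2 TG-PKR1 hearts and 1 WT) and among the arrays scanned once (y axis, 1 TG-PKR1 heart and 2 WT), coloured by group. Most points, 25 of 35, lie to the upper left or lower right of the 2 zero lines, where the signs are opposite.

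Other genes of the sarcomere were set beside them. Outside the 35, 49 such genes were chosen from general knowledge, with earlier results of these data known. Of these, 48 had a probe, 0 passed the adjusted test in either direction, and the median difference of their lead probes was 0.09. Synpo2l, an actin-bundling protein of the Z-disc, was the 1 gene whose lead probe had an unadjusted p under 0.05. It read 7.28, 7.34 and 6.93 in WT and 8.29, 7.31 and 7.87 in TG-PKR1, a difference of 0.64 (SE 0.25), with TG-PKR1 2 inside the WT range. Among the other probes of these genes, 1 of Pdlim7, a further enigma adaptor, had an unadjusted p of 0.0485 by limma (difference 0.39, SE 0.17, hearts not overlapping), while the lead probe of Pdlim7 gave 0.32 (SE 0.19). The lead probes of Bag3, Myo18b, Vcl and Xirp1 had hearts that did not overlap, all higher in TG-PKR1, by 0.11, 0.22, 0.28 and 0.34, and 0 of the 48 lay wholly lower, where 2.68% and 2.73% of all probes tested did. The mean was higher in TG-PKR1 for 33 of the 48 and lower for 15. The lowest were Smyd1, a methyltransferase of muscle that binds myosin, at -0.52 (SE 0.26), and Myl1, a light chain of fast muscle myosin, at -0.39 (SE 0.30). The lists of other cardiomyocyte genes and of skeletal muscle genes had medians of 0.03 and 0.08 and 0 calls.

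Markers of other cell types were also read in these hearts. Of 8 adipocyte markers, 3 were called lower in TG-PKR1 hearts and 7 lay wholly below the WT hearts. These calls were lost in each setting that called no probe, among them scan as a block and leaving out any one heart other than WT 2. The 3 called markers, Adipoq, Cidec and Plin1, differed by -2.30, -2.59 and -2.48 among the extended range arrays. Among those scanned once they differed by -1.62, -1.49 and -2.09. Relative to the WT mean, the median of the 8 adipocyte markers was -1.55, -1.21 and -1.91 in the 3 TG-PKR1 hearts. Of 8 brown adipocyte markers, 1 was called lower as well, and 4 lay wholly below the WT hearts, where 2.73% of all probes tested did. These were Ucp1, Elovl3, Cidea and Dio2, at -3.23, -2.05, -1.77 and -1.39. The others, Cox7a1, Cox8b, Plin5 and Ppargc1a, differed by -0.07, -0.08, 0.10 and 0.49. Lists of atrial, ventricular, smooth muscle, endothelial, cardiac fibroblast, macrophage and erythroid genes had 0 calls and medians of -0.11, 0.16, 0.02, -0.04, -0.12, -0.10 and -0.06. Relative to the WT mean, the 3 erythroid genes with a probe had a median of 0.68, -0.22 and -0.46 in the WT hearts and 0.49, -1.06 and 0.63 in the TG-PKR1 hearts. Alas2, the enzyme that starts heme synthesis in red cell precursors, read 14.27, 12.66 and 12.96 in WT and 14.02, 11.75 and 13.92 in TG-PKR1. Its 3 highest hearts, WT 1, TG-PKR1 1 and TG-PKR1 3, were also the 3 highest for 13 of the 35 lead probes, Des and Capzb among them, where they were so for 20.7% of all probes. They were the 3 highest for Slc4a1, the anion exchanger of red cells, as well. For Hba-a1, a globin of red cells, WT 2 at 17.75 was above TG-PKR1 3 at 17.35. The part of the other cell types in the values of the sarcomere genes was not tested.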

How the data were processed

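Single-dye Agilent arrays were hybridized with RNA from 3 WT and 3 TG-PKR1 hearts, each heart on its own array. The authors deposited fluorescence intensity per spot (Feature Extraction 9.5.1.1), not scaled between arrays, and a table of log2 values from LOWESS normalization of the brighter probes. Here log2 median signals were taken without background subtraction and without outlier spots. Loess (span 0.3, 4 iterations) brought each array to the median profile, a step that can remove a shift shared by bright probes. After averaging the spots of a probe, limma 3.58.1 in R 4.3.3 (with data.table, version 1.17.8) tested the 20000 brightest, with Benjamini-Hochberg adjustment at 0.05. Dimmer members were fitted with all 41174 probes. p-values measure the spread between these hearts together with that of their arrays, slides and scans, since each heart has 1 array. The number of arrays limits precision. Positions are those of mm8, as deposited. The procedure was tested on simulated data.

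Hearts are given singly for members whose lead probe had an unadjusted p under 0.05, no overlap between groups, or the largest difference of its group in either direction. Single hearts of Pdlim5, Alas2, the second Nebl probe and the 5′ Ttn probe were added after their values were seen. Members and lists were chosen with earlier results of these data known. Alternatives were other signal columns, normalizations, filters, eBayes settings, the authors' values, scan as a block, SAM, a threshold of 0.1 and each heart left out.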

Additional observations from a re-analysis of the deposited data

How the results depend on the processing

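No paired analysis was possible because the heart numbers follow label order and pair nothing, and only 1 slide, that of TG-PKR1 1 and WT 2, holds both groups. The count of member probes called was 0 in both directions in every setting run, including a threshold of 0.1 and SAM. In 10 of the 20 settings limma called 0 probes on the whole array, so that a count of 0 for the members was fixed there, and in the others it called 2 to 33 probes in all. The median difference over the 73 member probes was 0.13, and 0.26 when arrays were scaled by their 75th percentile and not by loess, while the median of all probes tested went from 0.03 to -0.02; the cause was not tested. Leaving out each heart gave medians of 0.09 to 0.16. Between 21 and 32 of the 35 lead probes had the higher mean in TG-PKR1 hearts, the lowest count without TG-PKR1 replicate 1 or WT replicate 3 and the highest with the 75th percentile scaling. Over the 19 alternatives, 605 of the 665 values of lead probes kept their sign; the values within each kind of scan, given in the text, are not among them. The lowest adjusted p of a lead probe in these alternatives was 0.523, for Des without TG-PKR1 replicate 2. The number of member probes with an unadjusted p under 0.05 was 1, and it was 8 without WT replicate 1, 3 without TG-PKR1 replicate 1, 9 without TG-PKR1 replicate 2 and 3 when all probes were tested. It was 0 with the processed signal, the 75th percentile scaling, the authors' log2 values and scan as a block, and without WT replicate 2, WT replicate 3 or TG-PKR1 replicate 3. The loess against the profile itself as axis, chosen after seeing the data, gave a median of 0.14. A slide as a random block could not be fitted, since limma gave no correlation with 5 slides for 6 arrays, and the values on the shared slide stand in the text. For the 23 lead probes whose difference was within its SE, 9 of the 437 values moved by 1 pooled SD or more, and 7 of these came from the 75th percentile scaling. The dim probes of Myoz1 and Tnni1 were among these 23 lead probes, and the part of their low signal over background was not tested.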
